A study of Mus musculus with 10 samples.

Results

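The genes described here are 10 genes of heart muscle: 6 that encode myosin of the thick filament (Myh6, Myh7, Myl2, Myl3, Myl4 and Myl7), 3 that encode thin filament proteins (Actc1, Tnnt2 and Tnni1), and Nppa, which encodes a hormone of heart muscle cells. They were found by their symbols, and all 10 were listed among 22878 genes. RNA-Seq of polyA RNA was performed on R1 mouse ES cells transduced with a lentiviral shRNA against Smyd5 (shSmyd5) or against luciferase (shLuc, the control), both under puromycin selection. Each line was measured as ES cells, grown on gelatin with the GSK3 inhibitor CHIR9901, and as embryoid bodies (EBs), which are floating aggregates that differentiate in medium without LIF, after 24 h and at day 6, day 10 and day 14. Each condition was sequenced as 1 library, which gives 10 libraries, so no difference between the lines has a replicate check, and an effect of the shRNA cannot be told apart from a difference between 2 cultures or libraries. An EB is a mixture of cell types. Fewer heart muscle cells and less RNA per heart muscle cell therefore cannot be told apart in these values.

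Heart muscle contracts by the sliding of thick filaments, made of myosin, along thin filaments, made of actin with troponin and tropomyosin. Each myosin molecule joins heavy chains, which are the motor, with essential and regulatory light chains, and the heart uses different copies of these genes in the atrium, in the ventricle, before birth and after it. Differentiating ES cells make beating heart muscle in EBs, and the appearance of these transcripts is a common sign of it.

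The level of a gene is given as RPKM, the reads of a transcript divided by its length and by the size of the library, with the reads behind it where they were few. A fold is the difference, shSmyd5 less shLuc within a stage, of log2 values after 0.1 was added to the RPKM, so a positive fold means higher in shSmyd5. The range in parentheses after a fold is the exact binomial 95% interval for the ratio of reads. It holds no more than counting error, so it is a statement on a pair of libraries and not on the conditions. Reads in genes ranged from 3895537 in shLuc ES cells to 43377815 in shLuc EBs of day 6. Smyd5 itself was lower in shSmyd5 at every stage, with an RPKM of 4.51 in shSmyd5 and 29.7 in shLuc ES cells, 0.891 and 10.7 at 24 h, 0.492 and 15.4 at day 6, 9.14 and 25.0 at day 10, and 6.88 and 13.1 at day 14. The ratio of shSmyd5 to shLuc for Smyd5 was thus 0.366 (0.326 to 0.410) at day 10 and 0.525 (0.477 to 0.576) at day 14, against 0.0320 (0.0253 to 0.0400) at day 6.

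The genes lie on 7 chromosomes (coordinates are of mm9), and 2 pairs are neighbours. Myh6 (chr14:55560758-55585764) and Myh7 (chr14:55589525-55613471) lie in the same orientation on the minus strand with 3760 bases between them. Tnni1 (chr1:137679642-137707566) and Tnnt2 (chr1:137737452-137748837) are both on the plus strand, 29885 bases apart in GENCODE. The RefSeq promoter windows of Tnnt2 end before its GENCODE start and nearer to Tnni1, at 137732910 and 137733565. The others are Myl2 (chr5:122550960-122563481), Myl3 (chr9:110666150-110672308), Myl4 (chr11:104411977-104457067), Myl7 (chr11:5796640-5798785), Actc1 (chr2:113873018-113879284) and Nppa (chr4:147374831-147376188). Exons of Myl2, Myl4 and Nppa overlap those of another annotated gene (Ccdc63, Gm11665 and Gm13054), and with no strand kept the reads of such pairs cannot be told apart.

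The CArG box, the sequence that serum response factor binds and a known element of muscle promoters, was the motif searched that the most genes held. RefSeq gives 14 promoter windows for the 10 genes, and all 14 were placed in mm9. These start sites are not those of the GENCODE coordinates above for every gene. Both windows of Myl2 end well before its start given above (122550960), at 122542732 and 122543197. The bases directly before that start were thus not searched. In the 250 bases before the start site, 3 of 14 windows held a CArG box, against 1.47% of 32851 windows of that length from all genes, and the matches belonged to Actc1, Myl3 and Myl7. Their surroundings (RefSeq, mm9) are shown because these are 3 of the genes whose levels at day 10 are described next, and the capitals mark the CArG box, which reads as a match on both strands.
Actc1, chr2:113878624-113878683, minus strand: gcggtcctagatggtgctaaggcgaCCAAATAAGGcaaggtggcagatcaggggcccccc
Myl3, chr9:110666072-110666131, plus strand: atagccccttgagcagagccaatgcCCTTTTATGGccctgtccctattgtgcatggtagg
Myl7, chr11:5798812-5798871, minus strand: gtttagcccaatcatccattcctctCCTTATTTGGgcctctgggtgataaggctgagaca
The box lay 47 to 38 bases before the start site of Actc1, 85 to 76 before that of Myl3 and 61 to 52 before that of Myl7. TATAAA on either strand was found in 2 of 14 windows (Myl2 and Nppa; 12.4% of all windows). AGATAA, a form of the site of GATA factors, was also found on either strand in 2 of 14 (Myl2 and Tnnt2; 9.99% of all windows). The MEF2 box was found in 0 of 14 windows (1.69% of all windows). A match is a stretch of letters, and binding was not measured at these sites here.

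In ES cells and in EBs of 24 h the heart muscle genes were near the floor in both lines. Their summed RPKM was 4.37 in shSmyd5 and 4.64 in shLuc ES cells, and 2.85 in shSmyd5 and 2.41 in shLuc EBs of 24 h. None of them reached an RPKM of 3 in any of these 4 libraries, where of all genes at that level 4.52% passed 2-fold upward and 11.3% downward in shSmyd5 ES cells, and 13.0% upward and 4.26% downward in shSmyd5 EBs of 24 h. Tnnt2, which anchors the troponin complex to tropomyosin, had 0 reads in all 4, which allows an RPKM of up to 0.0655 in shSmyd5 and 0.463 in shLuc ES cells and up to 0.0617 in shSmyd5 and 0.135 in shLuc EBs of 24 h. The genes with a level above 1 in ES cells were Myl7, with 2.66 in shSmyd5 and 2.43 in shLuc, and Myl4, with 1.09 in shSmyd5 (38 reads) and 1.42 in shLuc (7 reads). Myl7, the atrial regulatory light chain, also had 2.27 in shSmyd5 (56 reads) and 0.971 in shLuc EBs of 24 h (11 reads), a ratio of 2.34 with a counting interval of 1.21 to 4.94. A correction for GC content and transcript length put the fold of Myl7 at 24 h at 0.44 in place of 1.14. Myl4, the essential light chain of the atrium and of the embryonic heart, had 0 reads in shSmyd5 and 10 reads in shLuc at 24 h. By counting error alone the 0 reads allow an RPKM of up to 0.0812 against 0.590 in shLuc. The shSmyd5 library of 24 h had 8533 genes with 0 reads and the shLuc library 6670, at 26181482 and 11119729 reads in genes. The part of that gap in the 0 reads of Myl4 was not tested.

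At day 6 Actc1, the main sarcomeric actin of heart muscle, was the gene with the most reads in both lines. It had an RPKM of 2.95 in shSmyd5 and 3.21 in shLuc, a fold of -0.12 (-0.37 to 0.12), and it was the 1 gene of the 10 with an RPKM of 3 in 1 or both libraries. It was between the 2-fold limits, where 8.18% of 9461 genes at that level were at least 2-fold higher and 19.4% at least 2-fold lower in shSmyd5. Below that level, 3 light chain genes were detected in shLuc alone. Myl3, the essential light chain of the ventricle and of slow skeletal muscle, had 0 reads in shSmyd5 EBs, which allows an RPKM of up to 0.0519, against 63 reads and an RPKM of 1.09 in shLuc EBs. Myl2, the regulatory light chain of the ventricle, and Myl4 had 0 reads each in shSmyd5 against 13 reads each in shLuc. Nppa was the opposite case, with 10 reads and an RPKM of 0.187 in shSmyd5 and 0 reads in shLuc, which allows an RPKM of up to 0.0560. In ES cells it had 12 reads and an RPKM of 0.367 in shSmyd5 and 0 reads in shLuc, which at the lower depth of that library allows up to 0.648, so no difference was detectable there. The shSmyd5 library of day 6 had 8018 genes with 0 reads and the shLuc library 5925, at 38823851 and 43377815 reads in genes, and the part of that gap in these zeros was not tested.

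The heavy chains had few reads at day 6 and differed in opposite directions. Myh7, the slow beta heavy chain that predominates in the ventricle of the mouse before birth, had 0.280 in shSmyd5 (109 reads) and 0.102 in shLuc (40 reads). Myh6, the fast alpha heavy chain of the atrium and of the adult mouse ventricle, had 0.169 in shSmyd5 (66 reads) and 0.464 in shLuc (182 reads). The counting intervals of both ratios excluded 1, at 1.89 to 4.03 for Myh7 and 0.270 to 0.484 for Myh6. The pair shares sequence. Of the stretches of 36 bases in Myh6, 29.5% also occur in another myosin heavy chain gene, and the share was 29.2% for Myh7. How reads that fit several genes were treated is not stated for the RNA-Seq libraries, so the levels of the pair are uncertain to that extent. Of the other 8 genes only Actc1 shared such stretches, 0.209% of its own, with the smooth muscle actin Actg2.

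**Figure D1:**
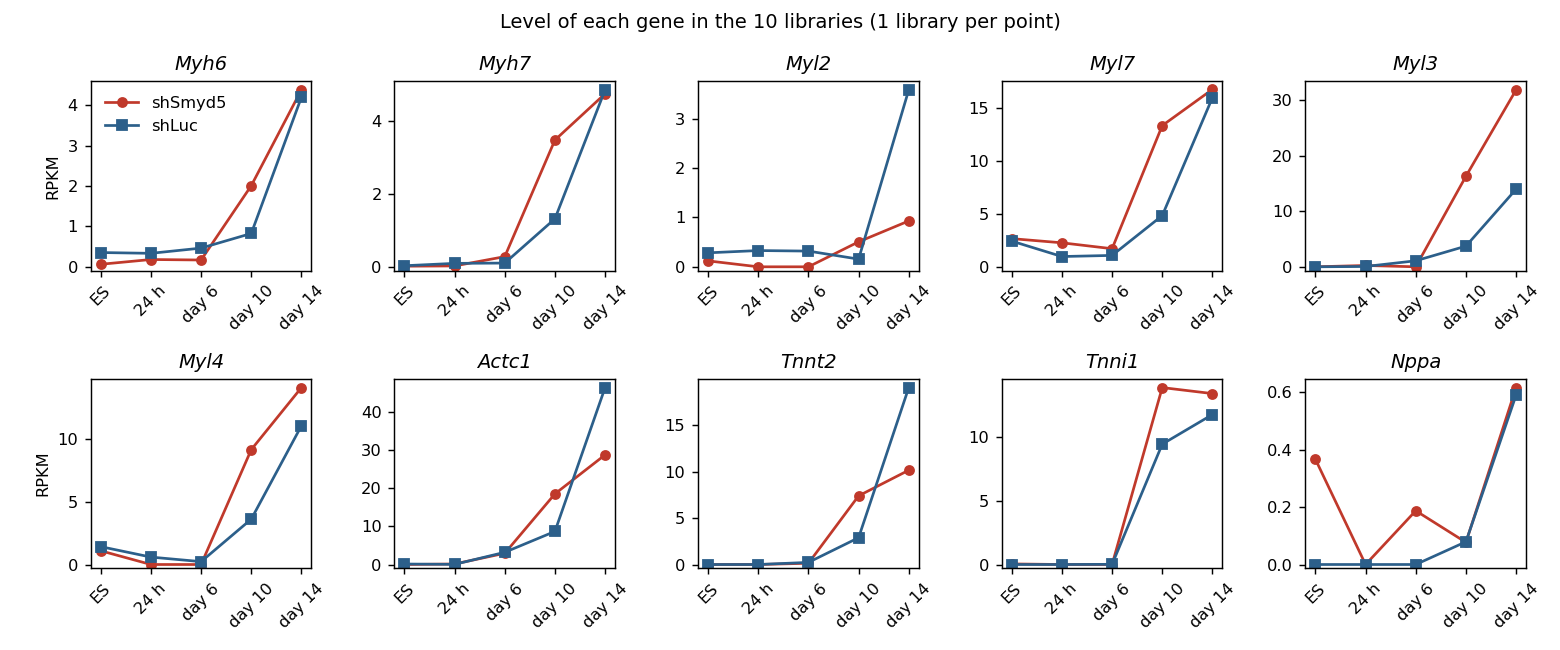
RPKM of each of the 10 genes (vertical axes, linear, each with its own range) in shSmyd5 (red circles) and shLuc (blue squares) at the 5 stages in order (horizontal axes, not to scale in time); each point is 1 library. At day 10 the shSmyd5 point lies above the shLuc point for 9 genes and not for Nppa, and at day 14 it lies below for Myl2, Actc1 and Tnnt2 and by a small amount for Myh7.

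Between day 6 and day 10 the heart muscle genes appeared in both lines. Their summed RPKM at day 10 was 84.7 in shSmyd5 and 35.6 in shLuc, against 5.43 in shSmyd5 and 6.72 in shLuc at day 6. For this step the quasi-likelihood test of edgeR was run over the 12277 genes whose mean RPKM was 1 or more, in which the 2 libraries of a stage, 1 of each line, stood in as its replicates and the shRNA was a block. Of the 8 heart muscle genes tested, 5 rose past an adjusted p of 0.05 and 0 fell, beside 8.6% of all genes higher and 9.46% lower. Myl2 and Nppa were too low to be tested.

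Both troponin genes rose in that step. Tnni1, the troponin I of slow skeletal muscle and of the heart before birth, had 236 reads in shSmyd5 and 313 reads in shLuc EBs of day 10, against 0 reads in shSmyd5 and 1 read in shLuc EBs of day 6. It passed the test at an edgeR adjusted p of 0.00165. Tnnt2 rose by 4.41 on the log2 scale (adjusted p 0.0141 by edgeR), and the RPKM at day 10 was 7.39 in shSmyd5 and 2.88 in shLuc. The 3 thick filament genes that passed the edgeR test were Myh7 (log2 difference 3.16, adjusted p 0.0223), Myl4 (5.84, 0.0281) and Myl7 (2.17, 0.0443). Actc1 (1.69, edgeR adjusted p 0.0698), Myh6 (2.02, 0.0858) and Myl3 (3.56, 0.122) did not pass, although each was higher at day 10 than at day 6 in both lines. Among 8 settings of the fit, Tnni1, Tnnt2 and Myl4 passed in 8 of 8 and Myl7 in 5 of 8, while Myh7 passed in all 7 in which it was tested. Of the genes that did not pass by edgeR as run here, Actc1 passed in 3 of the 8 settings, Myl3 in 2 of 8 and Myh6 in 1 of 7. Over all 12277 genes DESeq2 called 1592 higher in this step and limma 2373, against 1056 by edgeR as run here.

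Earlier, 1 of the 8 genes rose from 24 h to day 6. This was Actc1, by 4.79 on the log2 scale (edgeR adjusted p 0.00253), in a step in which 12.7% of all genes were called higher and 7.04% lower. Tnnt2 had an adjusted p of 0.0521 by edgeR there, with 10 reads in shSmyd5 and 17 in shLuc at day 6 and 0 reads in both libraries of 24 h. From ES cells to 24 h, 0 of 8 genes passed the edgeR test, and 0 of 8 had an unadjusted p under 0.05, beside 15.8% of all genes higher and 14.2% lower. DESeq2 also called 0 of 8 in that step, beside 2413 of 12277 genes higher and 2218 lower. With limma 1 of the 8 was lower, beside 1266 of 12277 genes higher and 3282 lower.

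At day 10 heart muscle genes were higher in shSmyd5 EBs than in shLuc EBs. Of the 7 genes that had an RPKM of 3 or more in either library, 6 were at least 2-fold higher in shSmyd5, 0 were at least 2-fold lower and 1 lay between, where 3.15% of 10576 genes at that level were at least 2-fold higher and 6.51% at least 2-fold lower. The median fold of the 7 was 1.33, and that of all genes at that level was -0.05. All 4 thick filament genes and 2 of the 3 thin filament genes at that level were among the 6. All 7 genes reached an RPKM of 3 in shSmyd5 and 5 of them did in shLuc. Myh7 (1.32 in shLuc) and Tnnt2 (2.88 in shLuc) were thus counted only through the library in which they were higher.

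Among the thick filament genes Myl3 differed most. It had an RPKM of 16.3 in shSmyd5 (229 reads) and 3.73 in shLuc EBs (102 reads), a fold of 2.10 (1.79 to 2.48). Myl7 had 13.3 in shSmyd5 and 4.84 in shLuc, a fold of 1.44 (1.05 to 1.88). Myl4 had 9.13 in shSmyd5 and 3.61 in shLuc, a fold of 1.32 (0.95 to 1.74). These light chains serve the ventricle (Myl3) as well as the atrium (Myl7 and Myl4), and all 3 were higher in shSmyd5. Myh7 had 3.48 in shSmyd5 and 1.32 in shLuc, a fold of 1.34 (1.16 to 1.65). Myh6 was under an RPKM of 3, with 2.01 in shSmyd5 and 0.826 in shLuc, and had a ratio of 2.43 (1.96 to 3.03). Myl2 had only 5 reads in shSmyd5 and 3 in shLuc, and its counting interval, from a ratio of 0.632 to 20.9, did not exclude 1.

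The thin filament genes were likewise higher in shSmyd5 EBs of day 10, with folds between 0.55 and 1.33. Actc1 had an RPKM of 18.6 in shSmyd5 and 8.69 in shLuc, a fold of 1.09 (0.89 to 1.30). Tnnt2, at the values given above, had a fold of 1.33 (0.97 to 1.74), and its 10 listed transcripts, which share most of their reads, gave folds between 1.21 and 1.33. Tnni1 had 13.9 in shSmyd5 and 9.46 in shLuc, a fold of 0.55 (0.31 to 0.80), which was the 1 of the 7 under 2-fold. Nppa, which encodes atrial natriuretic peptide, had 1 read in shSmyd5 and 2 reads in shLuc.

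**Figure D2:**
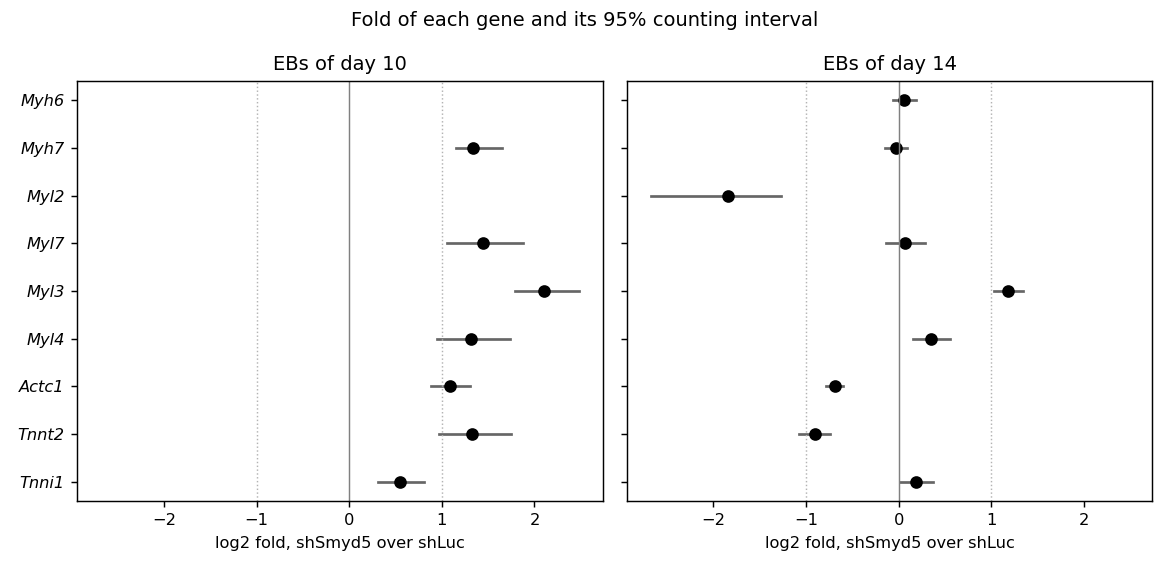
Log2 fold of shSmyd5 over shLuc (horizontal axis) for each gene that had an RPKM of 3 or more in either library (rows), in EBs of day 10 (left) and day 14 (right); points are the folds and lines their exact binomial 95% counting intervals, and dotted lines mark 2-fold. At day 10 all 7 points lie above 0, from 0.55 for Tnni1 to 2.10 for Myl3, and at day 14 the 9 points lie from -1.84 for Myl2 to 1.18 for Myl3.

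At day 14 the summed RPKM of the 10 genes was 125.8 in shSmyd5 and 131.5 in shLuc EBs, and the genes differed in different directions. Of the 9 genes that had an RPKM of 3 or more, 1 was at least 2-fold higher in shSmyd5, 1 at least 2-fold lower and 7 lay between, beside 3.17% of 10476 genes at that level higher and 4.07% lower. The median fold of the 9 was 0.06, and that of all genes 0.01. Myl2 reached that level in shLuc alone, the library in which it was higher.

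The ventricular light chains were the genes that passed 2-fold at day 14, in opposite directions. Myl3 had an RPKM of 31.9 in shSmyd5 and 14.0 in shLuc, a fold of 1.18 (1.03 to 1.34). Myl2 had 0.929 in shSmyd5 (23 reads) and 3.58 in shLuc (88 reads), a fold of -1.84 (-2.68 to -1.27). Myl4 had 14.1 in shSmyd5 and 11.0 in shLuc, a fold of 0.35 (0.15 to 0.55). The remaining thick filament genes had nearly the same values in both lines. Myl7 had 16.8 in shSmyd5 and 16.0 in shLuc, Myh7 had 4.75 and 4.86, and Myh6 had 4.39 and 4.20, and the counting intervals of these 3 folds all included 0, reaching at most from -0.15 to 0.28.

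Of the thin filament genes, Tnnt2 and Actc1 were lower in shSmyd5 EBs of day 14, short of 2-fold. Tnnt2 had an RPKM of 10.1 in shSmyd5 and 19.0 in shLuc, a fold of -0.90 (-1.07 to -0.74), between -0.93 and -0.90 over its listed transcripts. Actc1 had 28.8 in shSmyd5 and 46.5 in shLuc, a fold of -0.69 (-0.78 to -0.60), from 1567 and 2508 reads. Tnni1 had 13.4 in shSmyd5 and 11.8 in shLuc, a fold of 0.19 (0.01 to 0.36). Nppa stayed low, at 0.617 in shSmyd5 (20 reads) and 0.590 in shLuc (19 reads).

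The order of the levels differed between the lines at day 14. In shSmyd5 EBs Myl3 was the highest and Actc1 the next, with counting intervals that overlapped (30.1 to 33.8 against 27.4 to 30.3). In shLuc EBs Actc1 was the highest, above Tnnt2 (44.7 to 48.3 against 17.8 to 20.4), and Myl3 stood below Tnnt2 and Myl7, at 12.8 to 15.3. Tnnt2 stood lower in shSmyd5 EBs, below Tnni1 (9.24 to 11.1 against 12.4 to 14.6). Myl7, Myl3, Tnni1 and Myl4 followed each other in shLuc EBs with each interval overlapping the next, as did Myl7, Myl4 and Tnni1 in shSmyd5 EBs. The heavy chains came after these in both lines, followed by Myl2 and Nppa.

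The lines thus differed in the step from day 10 to day 14, a comparison chosen after the values were seen. At day 10 shSmyd5 EBs already had most of their own day 14 level of most of these genes, and shLuc EBs did not. Tnnt2 at day 10 was at 72.8% (59.6 to 88.4) of its day 14 RPKM in shSmyd5 and 15.1% (12.2 to 18.6) in shLuc. Actc1 was at 64.4% (57.6 to 71.9) in shSmyd5 and 18.7% (16.7 to 20.9) in shLuc. Myl7 was at 79.6% in shSmyd5 and 30.3% in shLuc, Myh7 at 73.2% and 27.1%, Myl4 at 64.9% and 32.7%, Myl3 at 51.2% and 26.6%, and Myh6 at 45.8% and 19.7%. For each of these 7 genes the counting intervals of the lines did not overlap. Tnni1 was nearest to its day 14 level in both lines, at 103.5% (88.6 to 120.7) in shSmyd5 and 80.3% (69.4 to 92.6) in shLuc, with intervals that overlapped. Over the 7 genes that had an RPKM of 3 or more in either library at both days the median was 72.8% in shSmyd5 and 27.1% in shLuc, where over all 9931 genes at that level it was 102.7% in shSmyd5 and 104.5% in shLuc.

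**Figure D3:**
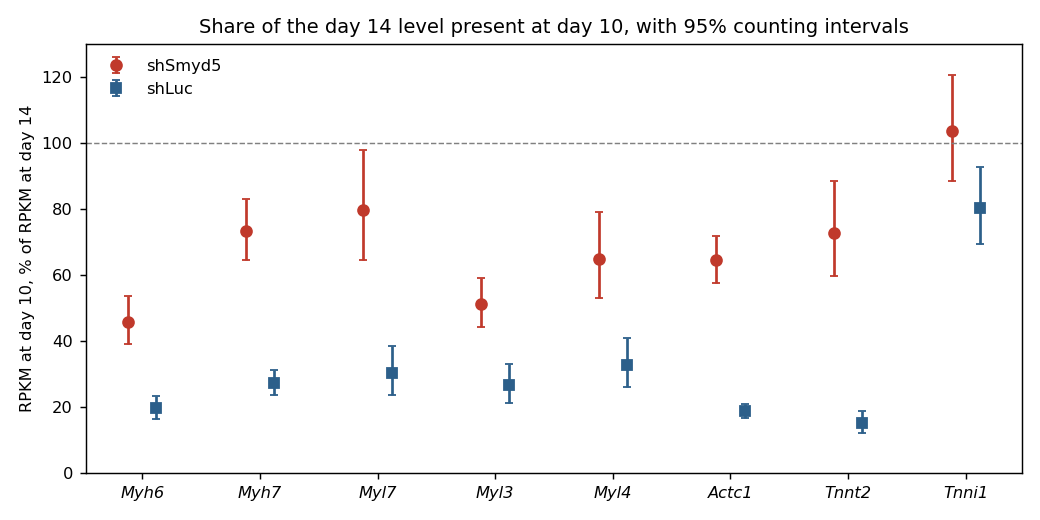
RPKM at day 10 as a percentage of the RPKM at day 14 of the same line (vertical axis) for 8 genes (horizontal axis), in shSmyd5 (red circles) and shLuc (blue squares), with exact binomial 95% counting intervals; Myl2 and Nppa, with 5 reads or fewer at day 10, are left out. For 7 of the 8 genes the shSmyd5 interval lies wholly above the shLuc interval, and for Tnni1 they overlap.

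Set against all genes at that level, this shift was uncommon. The fold was lower at day 14 than at day 10 for all 7 genes, and lower by at least 1 on the log2 scale for 4 of the 7, against 47.7% and 1.25% of 9931 genes. It was higher by at least 1 for 0 of the 7, against 4.14% of genes. The difference of the folds was -2.23 for Tnnt2, -1.77 for Actc1, -1.38 for Myl7, -1.37 for Myh7, -0.97 for Myl4, -0.92 for Myl3 and -0.36 for Tnni1. Their median was -1.37, where that of all genes was 0.03. Of the pluripotency genes 6 of 6 were lower too, 2 of them by at least 1, with a median of -0.94. The share among genes already higher in shSmyd5 at day 10, as all 7 were, was not taken. Myh7 and Tnnt2 reached an RPKM of 3 at day 10 in shSmyd5 alone. With a fold freed of a trend on GC content and transcript length, 6 of the 7 were lower by at least 1, and with a pseudocount of 1 it was 3 of the 7. The comparisons of day 10 and day 14 share no library, but each rests on 1 library of each line, so the values do not say whether another set of EBs would give the same shift.

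**Figure D4:**
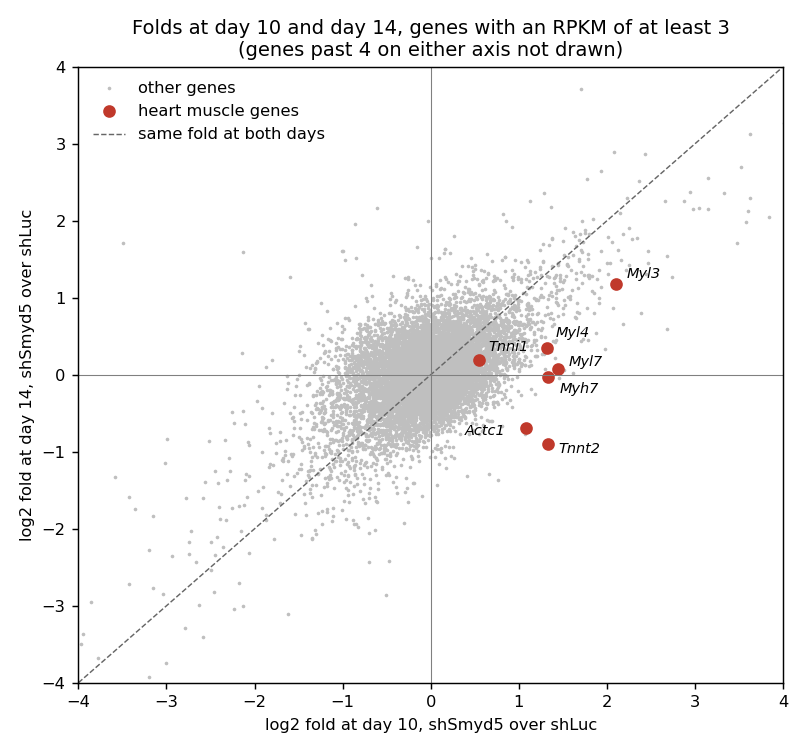
Log2 fold of shSmyd5 over shLuc at day 10 (horizontal axis) and at day 14 (vertical axis) for genes that had an RPKM of 3 or more in either library at both days; red points are the 7 heart muscle genes, grey points the other genes, and the dashed line marks equal folds. The 7 red points lie right of 0 and below the dashed line, and on the vertical axis Tnnt2 is at -0.90, Actc1 at -0.69 and Myh7 at -0.03, with the other 4 above 0.

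From day 10 to day 14, 0 of the 8 genes tested passed the edgeR test of a difference between the stages over both lines, although all 8 had a positive log2 difference, from 0.24 for Tnni1 to 1.64 for Actc1 (adjusted p 0.559 or more). In this step 0.0733% of all genes were called higher and 0.0% lower. The power of this test depended on the variation between libraries. On simulated counts it found 99.5% of 200 genes changed 4-fold at a biological coefficient of variation of 0.2, but 22.0% at 0.4. The common value estimated from these data was 0.335, so changes of that size could be missed. At an unadjusted p under 0.05 the edgeR fit had 1 of the 8 genes, DESeq2 had 2 and limma 4. Of all 12277 genes, edgeR had 930 at that threshold, DESeq2 1050 and limma 903. Neither DESeq2 nor limma called any of the 8 after adjustment.

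No effect of shSmyd5 shared over the 5 stages was called for any of the 8 genes tested. The lowest edgeR adjusted p was 0.494, for Myl7, with a log2 difference of 0.78. With edgeR 0.0% of all 12277 genes were called in either direction and 0 of the 8 genes had an unadjusted p under 0.05, against 1425 of all genes. DESeq2 called 176 genes higher and 157 lower, 0 of the 8 among them, and limma called 0. With day 6, day 10 and day 14 alone, edgeR called 55 genes higher and 24 lower, again with 0 of the 8, where the lowest adjusted p was 0.242, for Myh7 (0.242 to 1.00 over all settings of the fit). The 4 residual degrees of freedom of this fit hold any difference of the effect between stages, and the folds of these genes differed between day 10 and day 14 as described.

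Ratios of paired genes within 1 library do not depend on how many heart muscle cells the EBs held, as long as the pair is made by the same cells. Myh7 over Myh6 was alike in both lines at the late stages, at 1.73 (1.44 to 2.08) in shSmyd5 and 1.59 (1.30 to 1.97) in shLuc at day 10, and at 1.08 (0.99 to 1.18) in shSmyd5 and 1.15 (1.06 to 1.26) in shLuc at day 14. In both lines it was lower at day 14 than at day 10, with intervals that did not overlap. At day 6 the lines differed, with a ratio of 1.66 (1.21 to 2.29) in shSmyd5 and 0.221 (0.153 to 0.312) in shLuc. The shSmyd5 ratio of day 6 was thus near that of day 10 in either line, at far lower levels of both genes.

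Both light chain ratios differed between the lines at day 14, and Myl3 over Myl4 also at day 10. Myl3 over Myl4, the ventricular over the atrial essential chain, was 1.79 (1.43 to 2.24) in shSmyd5 and 1.03 (0.78 to 1.38) in shLuc at day 10, and 2.27 (2.04 to 2.53) in shSmyd5 and 1.27 (1.11 to 1.46) in shLuc at day 14. Myl7 over Myl2, the atrial over the ventricular regulatory chain, was 18.1 (11.9 to 28.8) in shSmyd5 and 4.46 (3.53 to 5.70) in shLuc at day 14. At day 10 that ratio was 26.4 (11.0 to 82.7) in shSmyd5 and 31.1 (10.3 to 153.8) in shLuc, from 5 and 3 reads of Myl2. At day 14 the ventricular form was thus relatively higher in shSmyd5 for the essential chain and relatively lower for the regulatory chain. At day 10 this held for the essential chain alone, as the intervals of the regulatory ratio overlapped. Myl3 is also made in slow skeletal muscle and Myl4 in embryonic skeletal muscle.

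**Figure D5:**
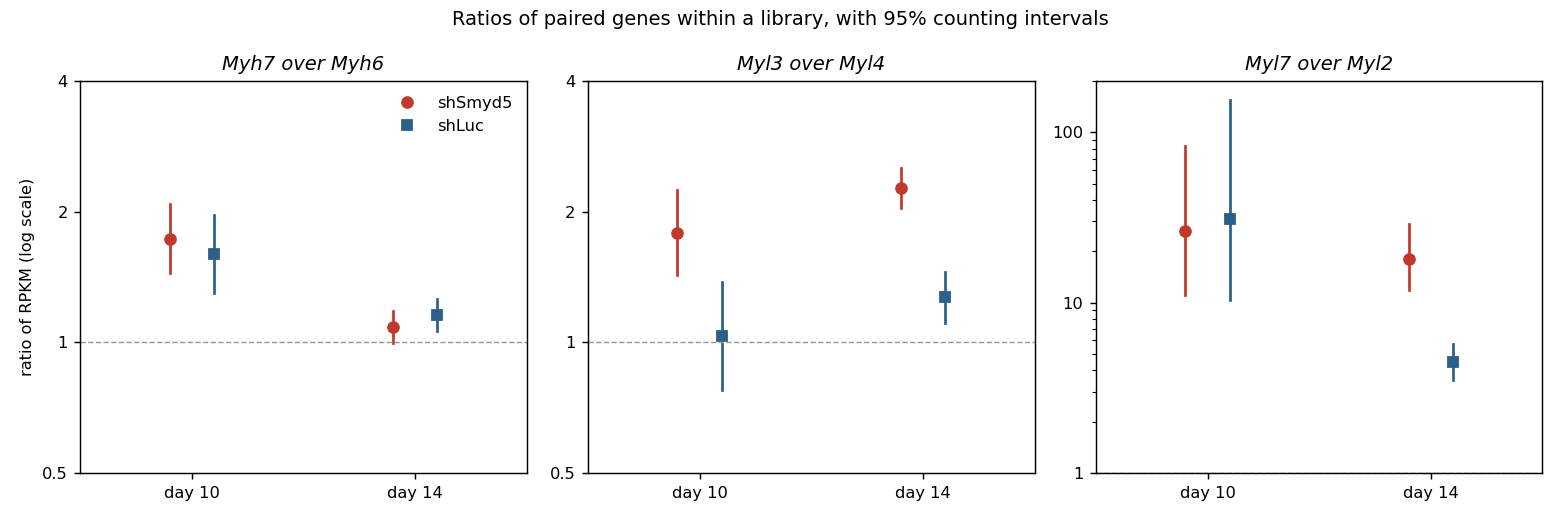
Ratio of the RPKM of paired genes within a library (vertical axes, log scale) at day 10 and day 14, in shSmyd5 (red circles) and shLuc (blue squares), with exact binomial 95% counting intervals. Myh7 over Myh6 overlaps between the lines at both days, Myl3 over Myl4 is higher in shSmyd5 at both days, and Myl7 over Myl2 is higher in shSmyd5 at day 14, at 18.1 against 4.46.

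Other sarcomere genes of heart muscle were mostly low in these EBs. Of 18 such genes, 5 reached an RPKM of 3 at day 10, of which 1 was at least 2-fold higher in shSmyd5 and 0 lower, and 6 reached it at day 14, of which 0 were higher and 1 lower. The median fold of those at that level was 0.13 at day 10 and 0.16 at day 14. The gene higher at day 10 was Cryab, a small heat shock protein made in muscle and elsewhere, with 34.0 in shSmyd5 and 9.31 in shLuc, and it was already at 19.1 in shSmyd5 and 1.12 in shLuc at day 6. The gene lower at day 14 was Csrp3, a LIM protein of the Z disc, with 1.71 in shSmyd5 and 5.28 in shLuc. At day 10 Csrp3 had 13 reads in shSmyd5 and 3 in shLuc. It was thus higher in shSmyd5 at day 10 and lower at day 14, as Tnnt2 and Actc1 were. The list as a whole did not shift that way. Of its 5 genes with an RPKM of 3 at both days, 3 had a lower fold at day 14 than at day 10. The median difference was -0.02. Mybpc3 went from a fold of -0.65 at day 10 to 0.26 at day 14, and Des from 0.13 to 0.71. Des, the muscle intermediate filament protein desmin, had 6.49 in shSmyd5 and 5.93 in shLuc at day 10 and 5.84 and 3.54 at day 14. From day 6 to day 10, 2 of the 6 genes of this list that were tested rose by edgeR (Mybpc3 and Tnnc1) and 0 fell.

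Some genes of the mature sarcomere and of calcium handling were low, while others were not. Tnnc1 had 13.3 in shSmyd5 and 12.7 in shLuc at day 14, and Mybpc3 had 6.55 and 5.47. Ttn, which encodes titin, did not exceed an RPKM of 0.103 in any library, and Myom2, an M band protein of adult heart, did not exceed 0.217. Tnni3, the troponin I that replaces the product of Tnni1 in the heart after birth, had 1.21 in shSmyd5 and 1.19 in shLuc EBs of day 14. It was higher in ES cells, at 2.12 in shSmyd5 and 1.96 in shLuc. Pln, which encodes the calcium pump inhibitor phospholamban, had 1.28 in shSmyd5 and 1.51 in shLuc at day 14. Of 10 calcium handling genes 2 reached an RPKM of 3 at day 14, with 0 at least 2-fold higher and 0 lower. These were the calcium pump gene Atp2a2, which many cell types use, with 49.7 in shSmyd5 and 41.6 in shLuc, and the sodium-calcium exchanger gene Slc8a1, with 1.62 in shSmyd5 and 3.13 in shLuc.

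Of 10 transcription factors of the heart 6 reached an RPKM of 3 at day 10, of which 1 was at least 2-fold higher in shSmyd5 and 0 lower. At day 14 it was 6 again, with 1 higher and 1 lower. The median fold was 0.25 at day 10 and -0.66 at day 14, and the fold was lower at day 14 than at day 10 for 5 of these 6 factors, lower by at least 1 for 1 of them (Isl1). Gata4, a zinc finger factor of heart and of visceral endoderm, was the higher one at both days, with 102.3 in shSmyd5 and 35.8 in shLuc at day 10 and 123.6 and 41.8 at day 14. Hand2, a basic helix-loop-helix factor of the right ventricle and other tissues, had 18.3 in shSmyd5 and 29.8 in shLuc at day 10 and 20.6 and 59.8 at day 14. Isl1, a factor of heart progenitors, had 6.92 in shSmyd5 and 4.93 in shLuc at day 10 and 3.49 and 5.82 at day 14. Nkx2-5, a homeobox factor of heart muscle, stayed under an RPKM of 3 throughout, with 1.43 in shSmyd5 and 1.79 in shLuc at day 10. From day 6 to day 10, 5 of the 6 factors tested rose by edgeR (Hand1, Hand2, Isl1, Mef2c and Tbx20).

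Some of these transcripts also occur in other muscle, and markers of other cell types differed between the lines. Of 18 skeletal muscle genes 2 reached an RPKM of 3 at day 10, of which 1 was at least 2-fold higher in shSmyd5 and 0 lower, and 2 reached it at day 14, with 0 in either direction. The gene higher at day 10 was Mylpf, a regulatory light chain of fast skeletal muscle, with 4.15 in shSmyd5 and 1.61 in shLuc, and it was highest in ES cells, at 115.8 in shSmyd5 and 78.5 in shLuc. The defining factors of skeletal muscle were near 0, with an RPKM of at most 0.0820 for Myod1, 0.0174 for Myog and 0.0243 for Myf5 in any library. Acta1, the skeletal actin that the early heart also makes, had 15.3 in shSmyd5 and 12.3 in shLuc at day 10 and 17.6 and 11.6 at day 14. Tnnt3, the fast skeletal troponin T, had 1.07 in shSmyd5 and 1.52 in shLuc at day 10 and 2.22 and 4.10 at day 14. Smooth muscle genes summed to 118.4 RPKM in shSmyd5 and 176.4 in shLuc at day 10, with 2 of 5 at least 2-fold lower and 0 higher, and to 220.2 in shSmyd5 and 213.1 in shLuc at day 14, with 1 of 6 lower. Neural genes summed to 6.62 in shSmyd5 and 93.5 in shLuc at day 10, with 5 of 5 at least 2-fold lower, and to 6.79 in shSmyd5 and 48.7 in shLuc at day 14, with 4 of 5 lower. Visceral endoderm genes summed to 2170 in shSmyd5 and 2127 in shLuc at day 10, with 2 of 10 at least 2-fold higher, endothelial genes had 1 of 6 lower, blood genes 3 of 5 lower and pluripotency genes 0 of 6 in either direction. At day 14 it was 2 of 10 visceral endoderm genes higher, 1 of 5 endothelial genes lower, 2 of 3 blood genes higher and 5 of 6 pluripotency genes lower. The part of a different make-up of the EBs in the folds of the heart muscle genes was not tested.

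Folds also followed base composition, to an extent that differed between stages. The rank correlation across genes of fold with GC content was -0.677 in ES cells, 0.563 at 24 h and 0.0155 at day 6. It was -0.385 at day 10 and 0.322 at day 14, where genes are not independent replicates. The heart muscle genes had a GC content of 51.8% to 56.5%, at percentiles 57.0 to 81.3 of genes. A correction for GC content and transcript length put the fold of Tnni1 at 0.69, that of Myl3 at 2.16 and that of Tnnt2 at 1.41 at day 10, and that of Tnnt2 at -1.01 and that of Myh6 at -0.16 at day 14.

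The genes outside the list whose profile was most like the mean profile of the 10 were found among 12079 genes by the root mean square difference of centred log2 levels over the 10 libraries. They were Adamts12 (0.34), Cybrd1 (0.41), Prkg1 (0.43), Trp63 (0.43), Masp1 (0.44), Hspb7 (0.45), Tnnt3 (0.46), Diras2 (0.47), Itga4 (0.48) and Klf14 (0.49). Among the 10 genes themselves Myh7 was nearest to the mean profile of the others (0.49) and Nppa farthest (1.86), with Actc1 next (1.75). Of these neighbours only Trp63 was at least 2-fold higher in shSmyd5 at day 10. Trp63, a p53 family factor of stratified epithelium, had 3.15 in shSmyd5 and 1.09 in shLuc at day 10 and 3.54 and 3.64 at day 14, while Adamts12, a secreted protease, had 1.08 in shSmyd5 and 1.08 in shLuc at day 10. Hspb7, a small heat shock protein of heart muscle, had 0.740 in shSmyd5 and 0.415 in shLuc at day 10 and 2.15 and 3.69 at day 14.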

How the data were processed

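RNA-Seq libraries were made from polyA RNA through double-stranded cDNA, so no strand is known. The authors mapped the reads to mm9, with Bowtie2 and CASAVA named in the submitters' processing notes (versions and read length not given in the sources used here), and deposited a whole read count and an RPKM value per RefSeq transcript. It was checked that 100% of values over 200 reads had an RPKM within 1% of that given by the deposited count, the length and a library total. That total was derived from the same values, as a median over them in each library. The check thus shows that RPKM was proportional to reads over length within a library, and it does not check the total. Of 29257 transcripts, the one with the highest mean count was kept per symbol, which gave 22878 genes. Library totals limit the precision, and intervals and floors (3 reads for a count of 0) cover counting error only.

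Folds used log2 of RPKM plus 0.1. Genes were counted at a fold of 2 and an RPKM of 3 or more in either library, and exact Clopper-Pearson 95% intervals were taken of ratios of reads and exact Poisson intervals of levels. Stage steps and the shared effect of shSmyd5 were tested with edgeR (quasi-likelihood, TMM, stage and shRNA as terms, Benjamini-Hochberg adjustment over all genes tested), after it was tested on simulated data with 200 changed genes. Alternatives changed the pseudocount (1, 0.01), the RPKM minimum, the fold (1.5), the scaling, the GC and length correction (GC content known for 88.4% of genes), the transcripts summed, the test (DESeq2, limma), the blocks and the stages included. Positions came from GENCODE M1 on NCBIM37 (mm9) and promoter sequences from RefSeq, each matched exactly to mm9. Named were the 10 genes, Smyd5, up to 3 genes of each other list with the largest fold at day 14 and the 10 nearest profiles, and other genes named were chosen after their values were seen. The genes and lists were chosen with earlier results of these data known. Computations ran in R 4.3.3 (DESeq2 1.42.0, edgeR 4.0.16, limma 3.58.1) and in Python 3.11.15 with matplotlib 3.10.9, scikit-learn 1.9.0, scipy 1.17.1, pandas 2.3.3 and numpy 2.4.6.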

Additional observations from a re-analysis of the deposited data

Results flagged for a closer look

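The difference between the lines had opposite signs at day 10 and day 14, with counting intervals that excluded 0 at both days, for Actc1 and Tnnt2. Actc1 had a log2 fold of -0.69 at day 14 and 1.09 at day 10, a difference (day 14 less day 10) of -1.77. Tnnt2 had a log2 fold of -0.90 at day 14 and 1.33 at day 10, a difference of -2.23. Myh7 (-0.03 at day 14 and 1.34 at day 10) and Myl2 (-1.84 and 1.24) also had opposite signs, with a counting interval that included 0 at 1 of the days. Actc1 and Tnnt2 stood out because the 1 library of each line moved one way at day 10 and the other way at day 14. With 1 library per condition these differences between the days were not tested.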

How the results depend on the processing

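At day 10 the count of genes at least 2-fold higher in shSmyd5 was 6 and kept within 1.5 times of that under every alternative run (5 to 8). Of 17 folds at an RPKM of 3, 0 reversed with a counting interval away from 0, and 16 to 17 kept their sign under each alternative. At day 14 the genes at least 2-fold lower were 1, 2 with the GC and length correction (Tnnt2 added) and 3 at a fold of 1.5. With no RPKM minimum, 1 gene was higher and 2 lower in ES cells, 2 higher and 2 lower at 24 h, and 1 higher and 4 lower at day 6, where the counts had been 0. At an RPKM of at least 1, 1 gene was higher at 24 h and 1 lower at day 6, and with TMM scaling 1 was higher at 24 h. For the counts under the alternatives named so far, shares over all genes at the same setting are not given here. The counts are therefore not set against a background. Several early folds also rest on very few reads, as with the 0 reads of Myl2, Myl3 and Myl4 in shSmyd5 EBs of day 6. From 24 h to day 6, where edgeR called 1 gene higher, 2 were called with DESeq2, with no filter, with no shRNA block and with the transcripts summed. Of all 12277 genes, edgeR called 1558 higher in that step, DESeq2 1894 and the fit with no shRNA block 1338. With no filter it was 2037 of 19819 genes, and with the transcripts summed 1461 of 12488. From ES cells to 24 h limma called 1 gene lower, beside 3282 of all 12277 genes. Over all genes, an effect of shSmyd5 shared by the stages was called for 0 genes by edgeR, 333 by DESeq2, 163 with no filter and 79 with the late stages alone, and the cause was not tested. The fold was lower by at least 1 at day 14 than at day 10 for 4 of 7 genes (1.25% of all genes at that level). The alternatives were chosen after seeing the data. A pseudocount of 1 gave 3 of 7 (0.775% of all genes), 1 of 0.01 gave 4 of 7 (1.37%) and the GC and length correction 6 of 7 (1.29%). An RPKM of at least 1 gave 5 of 8 (1.97%) and no RPKM minimum 6 of 10 (4.03%). The last includes Myl2, with 5 reads in shSmyd5 and 3 in shLuc at day 10. The libraries were paired by stage in the test of shSmyd5, and without stage as a block 0 of the 8 genes passed as well. No paired analysis by replicate number was possible because the labels give none. Low read counts limit what can be said of Myl2 and Nppa, and of most of the genes before day 10. The libraries of day 6 nevertheless had the most reads in genes.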
